A study of Homo sapiens with 6 samples.

Results

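The families described here write, erase or regulate methylation and acetylation on histones and methylation on DNA. They are the DNA methyltransferases (DNMT), the TET dioxygenases, the core of Polycomb repressive complex 2 (PRC2), the lysine methyltransferases of the KMT2, KMT5 and SETD series and EHMT1, the lysine demethylases (KDM), the histone deacetylases (HDAC) and the sirtuins (SIRT). Members were taken by symbol, although the choice of families was made with earlier results of these data known, and a further family gene was left out. They are the genes whose single annotated symbol belongs to one of these series, plus EZH1, EZH2, EED, SUZ12 and EHMT1. This gave 64 of the 19774 genes measured, and each was read from its brightest probe set, by the mean of all arrays. BMI1, a Polycomb protein, lay only on probe sets that carry several symbols and was not analysed here.

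Gene expression was profiled in SY5Y-TR1 cells, a subline of neuroblastoma (NB) cells that grows in the presence of the ALK inhibitor TAE684, and in the parental, TAE684-sensitive SH-SY5Y cells. Both lines bear ALKF1174L, the activating F1174L mutation of the receptor tyrosine kinase ALK, and both grew in the same RPMI medium with serum. SY5Y-TR1 cells were kept in 1 μM TAE684 and SH-SY5Y cells in medium only. SY5Y-TR1 is 1 expanded subclone of a culture that had been selected with increasing TAE684, so the resistant state, the clone and the drug in its medium cannot be told apart in this comparison. The labels call the 3 arrays of each line biological replicates, whereas the submitters' design text speaks of replicates run of each line, so the p-values below measure the spread between these samples.

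DNA methyltransferases place methyl groups on cytosines, most of them in CpG pairs, and TET enzymes oxidize those methyl groups as a step toward their removal. PRC2 methylates histone H3 at repressed developmental genes through EZH2 or EZH1, and the KMT2 enzymes methylate a different lysine of histone H3 at active promoters and enhancers. Deacetylases of the HDAC and SIRT families and demethylases of the KDM family remove marks, and many of them work inside larger co-repressor complexes. In neuroblasts and other dividing precursors, EZH2, DNMT1 and their partners are known to be abundant during proliferation.

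The deposited log2 values had been made by RMA (robust multi-array average), a method that removes background, brings the arrays to a common distribution and combines the probes of a set. The array medians lay between 5.56 and 5.59. Pearson's r over all probe sets was 0.997 to 0.998 between arrays of a line and 0.959 to 0.960 between arrays of different lines. The values carry no detection calls, so the background level was set at 6.32, which is the 90th percentile over the mean signals of 38 genes that belong to unrelated tissues. Lines were compared with limma over all genes, with Benjamini-Hochberg adjustment, and a call in either direction required an adjusted p under 0.05 together with a change of 2-fold or more. Schwann cell, blood cell and endothelial markers, 6, 8 and 8 of them measured, were at or under background on every array. Of the blood cell markers, CD3E, MS4A1 and HBB were also among the 38 genes that set this level.

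In SY5Y-TR1 cells 7 of the 64 regulators were called lower and none was called higher than in SH-SY5Y cells. The 7 were TET1, EZH2, TET3, DNMT3A, DNMT3B, HDAC4 and KDM1A, which belong to 5 of the families. The share of members called lower was 10.9%, against 5.99% of all genes, and the share called higher was 0%, against 5.36% of all genes. Without the limit on the fold, 29 members were lower (45.3%) and 16 higher (25%), and 19 did not pass. Among all genes the corresponding shares were 24.3% lower and 28.5% higher. The median log2 fold change of the members was −0.13, against 0.04 over all genes. The values of the lines did not overlap in 45 of 64 members, and they did not overlap in 59.8% of all genes.

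Expressed genes pass such limits more often than silent ones, and most of the members were expressed. A mean signal above background was found for 59 members and for 10975 genes. Of these 59 members, 7 were called lower (11.9%), against 8.35% of the expressed genes, and 0 were called higher, against 7.81%. By adjusted p alone 28 of the 59 were lower (47.5%), against 36.3% of the expressed genes, and 16 were higher (27.1%), against 38.4%. The lines did not overlap in 44 of the 59, and in 82.5% of the expressed genes. DNMT3L, KDM4D, KDM5D and SIRT4 were at or under background on all arrays of both lines, and KDM8 exceeded it on 2 SY5Y-TR1 arrays and 0 SH-SY5Y arrays. Differences between signals at background are not read as changes of these genes.

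**Figure D1:**
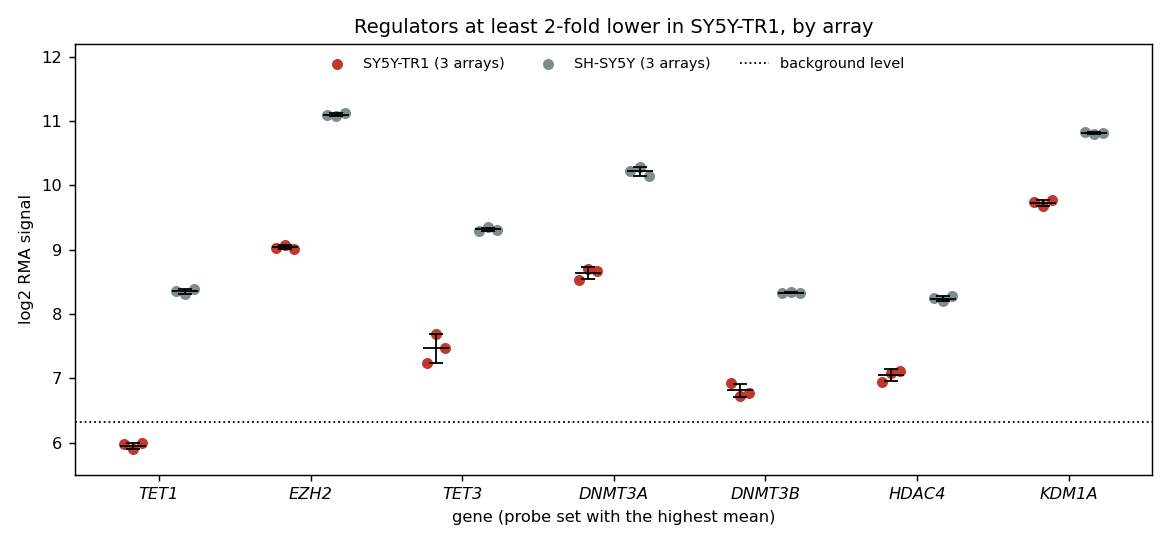
Log2 RMA signal (vertical axis) of the 7 regulators called lower in SY5Y-TR1 cells, with a point for each of the 3 SY5Y-TR1 and 3 SH-SY5Y arrays, horizontal bars for means, error bars for SD and a dotted line at the background level of 6.32. The SY5Y-TR1 arrays lie below the SH-SY5Y arrays for each gene, and TET1 lies under the background level on all SY5Y-TR1 arrays.

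The de novo DNA methyltransferases DNMT3A and DNMT3B were both lower in SY5Y-TR1 cells. DNMT3A had log2 signals of 8.53, 8.70 and 8.67 in SY5Y-TR1 cells, against 10.22, 10.29 and 10.14 in SH-SY5Y cells. DNMT3B had 6.93, 6.73 and 6.78 in SY5Y-TR1 cells, against 8.33, 8.34 and 8.33 in SH-SY5Y cells. The lines were apart by far more than the replicates for both enzymes. The log2 fold change was −1.58 ± 0.06 (SE, n = 3 arrays each) for DNMT3A, a 2.99-fold lower signal (limma adjusted p = 1.13e-06). It was −1.52 ± 0.06 for DNMT3B, a 2.87-fold lower signal (limma adjusted p = 9.9e-07).

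DNMT1, the maintenance methyltransferase that copies methylation onto newly made DNA, fell just outside the fold limit. Its signals were 10.42, 10.66 and 10.62 in SY5Y-TR1 cells, against 11.52, 11.47 and 11.54 in SH-SY5Y cells, with no overlap. The log2 fold change was −0.94 ± 0.07, a 1.92-fold lower signal (limma adjusted p = 2.63e-05). It was the member nearest to the limit from outside, and KDM1A, at 2.11-fold, was nearest from inside. DNMT3L, a cofactor of the DNMT3 enzymes that has no catalytic activity, averaged 4.98 in SY5Y-TR1 cells and 4.94 in SH-SY5Y cells, both under background.

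TET1, a dioxygenase with a CpG-binding zinc finger, was above background in SH-SY5Y cells only. It had log2 signals of 5.97, 5.90 and 5.99 in SY5Y-TR1 cells, all under background, against 8.36, 8.31 and 8.39 in SH-SY5Y cells. Because its signal in SY5Y-TR1 cells was not above background, TET1 was at least 4.08-fold lower there (log2 fold change −2.40 ± 0.05, limma adjusted p = 4.94e-08). TET3 had 7.24, 7.69 and 7.47 in SY5Y-TR1 cells, against 9.30, 9.35 and 9.30 in SH-SY5Y cells. It was 3.61-fold lower (log2 fold change −1.85 ± 0.11, limma adjusted p = 7.03e-06), with an SD of 0.23 among SY5Y-TR1 arrays and 0.028 among SH-SY5Y arrays.

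TET2, the third of these dioxygenases, was lower by less than 2-fold. Its signals were 7.67, 7.69 and 7.85 in SY5Y-TR1 cells, against 8.62, 8.43 and 8.47 in SH-SY5Y cells, and its log2 fold change was −0.77 ± 0.07 (limma adjusted p = 9.07e-05). All 3 TET genes and 3 of 4 DNMT genes (75%) were therefore lower by adjusted p, against 36.3% of the expressed genes. The exception, DNMT3L, was at background. Transcript signals for enzymes that add DNA methylation and for enzymes that oxidize it were thus lower in the same line.

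EZH2, the main catalytic subunit of PRC2, had the largest decrease among members measured above background in both lines. It had log2 signals of 9.02, 9.08 and 9.02 in SY5Y-TR1 cells, against 11.09, 11.09 and 11.13 in SH-SY5Y cells. This was a 4.18-fold lower signal (log2 fold change −2.06 ± 0.04, limma adjusted p = 5.67e-08). The SD was 0.033 in SY5Y-TR1 cells and 0.022 in SH-SY5Y cells, so the lines differed by many times the spread between arrays.

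The other PRC2 core genes moved less, and they did not all move the same way. SUZ12, a scaffold subunit, had signals of 10.70, 10.70 and 10.68 in SY5Y-TR1 cells, against 11.13, 11.21 and 11.16 in SH-SY5Y cells (log2 fold change −0.47 ± 0.04, limma adjusted p = 6.64e-05). EED, the subunit that binds the methylated product, had 10.75, 10.72 and 10.80 in SY5Y-TR1 cells, against 11.02, 11.03 and 11.04 in SH-SY5Y cells (log2 fold change −0.28 ± 0.04, limma adjusted p = 0.00101). EZH1, the alternative catalytic subunit known from nondividing cells, was higher, with 8.16, 8.30 and 8.28 in SY5Y-TR1 cells, against 7.95, 7.84 and 7.91 in SH-SY5Y cells (log2 fold change 0.34 ± 0.06, limma adjusted p = 0.0017). All 5 EZH1 probe sets had a positive log2 fold change, and 4 of them passed the adjusted p.

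The upstream sequences of TET1, EZH2 and DNMT3B are shown. TET1 and EZH2 had the largest decreases of the members, and DNMT3B, a de novo methyltransferase, has a single start in the list used. They were chosen after the values were seen. Each is the 250 bases before the first listed RefSeq start of the gene (build GRCh38.p14), read 5′ to 3′ on the gene's strand. Capitals mark CCAAT or its reverse complement ATTGG, the core of the box bound by the factor NF-Y, searched on both strands. TET1 lies at chr10:68560087-68560336 (plus strand), EZH2 at chr7:148884292-148884541 (minus strand) and DNMT3B at chr20:32779602-32779851 (plus strand).
TET1: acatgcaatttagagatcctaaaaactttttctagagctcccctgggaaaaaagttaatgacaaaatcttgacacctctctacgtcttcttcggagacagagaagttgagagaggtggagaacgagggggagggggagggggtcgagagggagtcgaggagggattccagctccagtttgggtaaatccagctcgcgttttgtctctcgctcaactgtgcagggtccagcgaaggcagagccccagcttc
EZH2: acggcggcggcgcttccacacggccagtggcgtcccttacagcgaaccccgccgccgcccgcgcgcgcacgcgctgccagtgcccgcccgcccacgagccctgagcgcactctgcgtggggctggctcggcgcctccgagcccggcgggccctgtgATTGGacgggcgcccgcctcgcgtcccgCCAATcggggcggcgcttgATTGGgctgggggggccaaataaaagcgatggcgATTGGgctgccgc
DNMT3B: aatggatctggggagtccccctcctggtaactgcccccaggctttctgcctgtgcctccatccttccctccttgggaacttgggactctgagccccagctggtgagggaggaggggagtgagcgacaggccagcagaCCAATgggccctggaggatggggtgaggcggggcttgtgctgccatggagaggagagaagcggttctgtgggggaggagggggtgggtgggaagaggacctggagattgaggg

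The EZH2 window held 4 CCAAT matches and 38 CpG pairs, the DNMT3B window 1 match and 3 CpG pairs, and the TET1 window 0 matches and 9 CpG pairs. At least 1 CCAAT was found at the first start of 33.0% of 27305 genes, of 35% of the 60 members with a RefSeq entry and of 2 of the 7 members called lower. At least 4 matches were found for 0.930% of all genes. The median number of CpG pairs was 11 over all genes, 23 over the members and 21 over the 7. Other listed starts of the same gene differed, since 2 further TET1 starts held 2 matches each and the second EZH2 start held 0. A match is a description of these letters and not a binding site. Which start was used in these cells was not measured, so a window need not be the active promoter.

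HDAC4, a class IIa deacetylase that acts largely as a signal-dependent co-repressor, was 2.28-fold lower in SY5Y-TR1 cells. Its log2 signals were 6.95, 7.08 and 7.12 in SY5Y-TR1 cells, against 8.25, 8.20 and 8.27 in SH-SY5Y cells (log2 fold change −1.19 ± 0.06, limma adjusted p = 2.74e-06). KDM1A, the flavin-dependent demethylase also known as LSD1, was 2.11-fold lower, with 9.75, 9.68 and 9.77 in SY5Y-TR1 cells, against 10.83, 10.80 and 10.81 in SH-SY5Y cells (log2 fold change −1.08 ± 0.04, limma adjusted p = 1.1e-06). Neither gene's values overlapped between the lines. KDM1B, the only other flavin-dependent demethylase, was higher by less than 2-fold, with 7.92, 7.83 and 7.74 in SY5Y-TR1 cells, against 7.17, 7.21 and 7.17 in SH-SY5Y cells (log2 fold change 0.65 ± 0.06, limma adjusted p = 5.53e-05).

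By adjusted p 5 of 11 HDAC genes were lower (45.5%), 5 were higher (45.5%) and 1 did not pass, against 36.3% lower and 38.4% higher among the expressed genes. The gene that did not pass, HDAC11, had a second probe set of similar brightness that was higher, with a log2 fold change of 0.56 (limma adjusted p = 0.000549). The lower genes were HDAC4, HDAC2, HDAC8, HDAC9 and HDAC3. HDAC2, a class I enzyme of the NuRD, SIN3 and CoREST complexes, was among the brightest members, with 11.78, 11.80 and 11.75 in SY5Y-TR1 cells, against 12.46, 12.46 and 12.44 in SH-SY5Y cells (log2 fold change −0.68 ± 0.04, limma adjusted p = 6.44e-06). Its close paralog HDAC1, found in the same complexes, was higher, with a log2 fold change of 0.27 ± 0.04 (limma adjusted p = 0.00122). All 5 HDAC9 probe sets were lower by adjusted p, with log2 fold changes of −0.53 to −0.96.

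HDAC5, HDAC7, HDAC6 and HDAC10, also of class II, were higher. HDAC5, a class IIa enzyme like HDAC4, had 8.18, 8.08 and 8.20 in SY5Y-TR1 cells, against 7.58, 7.48 and 7.58 in SH-SY5Y cells (log2 fold change 0.61 ± 0.05, limma adjusted p = 5.46e-05). HDAC10, a class IIb enzyme that deacetylates polyamines, had 6.91, 7.29 and 6.91 in SY5Y-TR1 cells, against 6.50, 6.42 and 6.39 in SH-SY5Y cells (log2 fold change 0.60 ± 0.11, limma adjusted p = 0.00261). HDAC7, of class IIa, and HDAC6, the tubulin deacetylase, had log2 fold changes of 0.33 and 0.27. The second probe sets of HDAC5 and HDAC10 gave −0.02 and 0.02, and neither passed the adjusted p. The other HDAC6 probe sets gave −0.005 and, under background in both lines, −0.10, and did not pass. The other HDAC7 probe set, under background in both lines, gave 0.30 and did not pass.

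Among the sirtuins, the NAD-dependent deacylases, 1 of 7 was lower by adjusted p (14.3%), 3 were higher (42.9%) and 3 did not pass. The corresponding shares of the expressed genes were 36.3% lower and 38.4% higher. SIRT1, a nuclear sirtuin, had signals of 9.18, 9.13 and 9.18 in SY5Y-TR1 cells, against 9.91, 9.87 and 10.05 in SH-SY5Y cells (log2 fold change −0.78 ± 0.06, limma adjusted p = 2.44e-05). SIRT7, the nucleolar sirtuin, had 9.58, 9.61 and 9.61 in SY5Y-TR1 cells, against 9.05, 9.01 and 9.01 in SH-SY5Y cells (log2 fold change 0.58 ± 0.04, limma adjusted p = 1.53e-05). SIRT2 and SIRT5, a cytoplasmic and a mitochondrial sirtuin, had log2 fold changes of 0.34 and 0.24. The values of SIRT5 overlapped between the lines, and 1 of its 6 probe sets was higher by adjusted p. SIRT3 and SIRT6 had log2 fold changes of 0.01 that did not pass, and SIRT4 was at background.

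**Figure D2:**
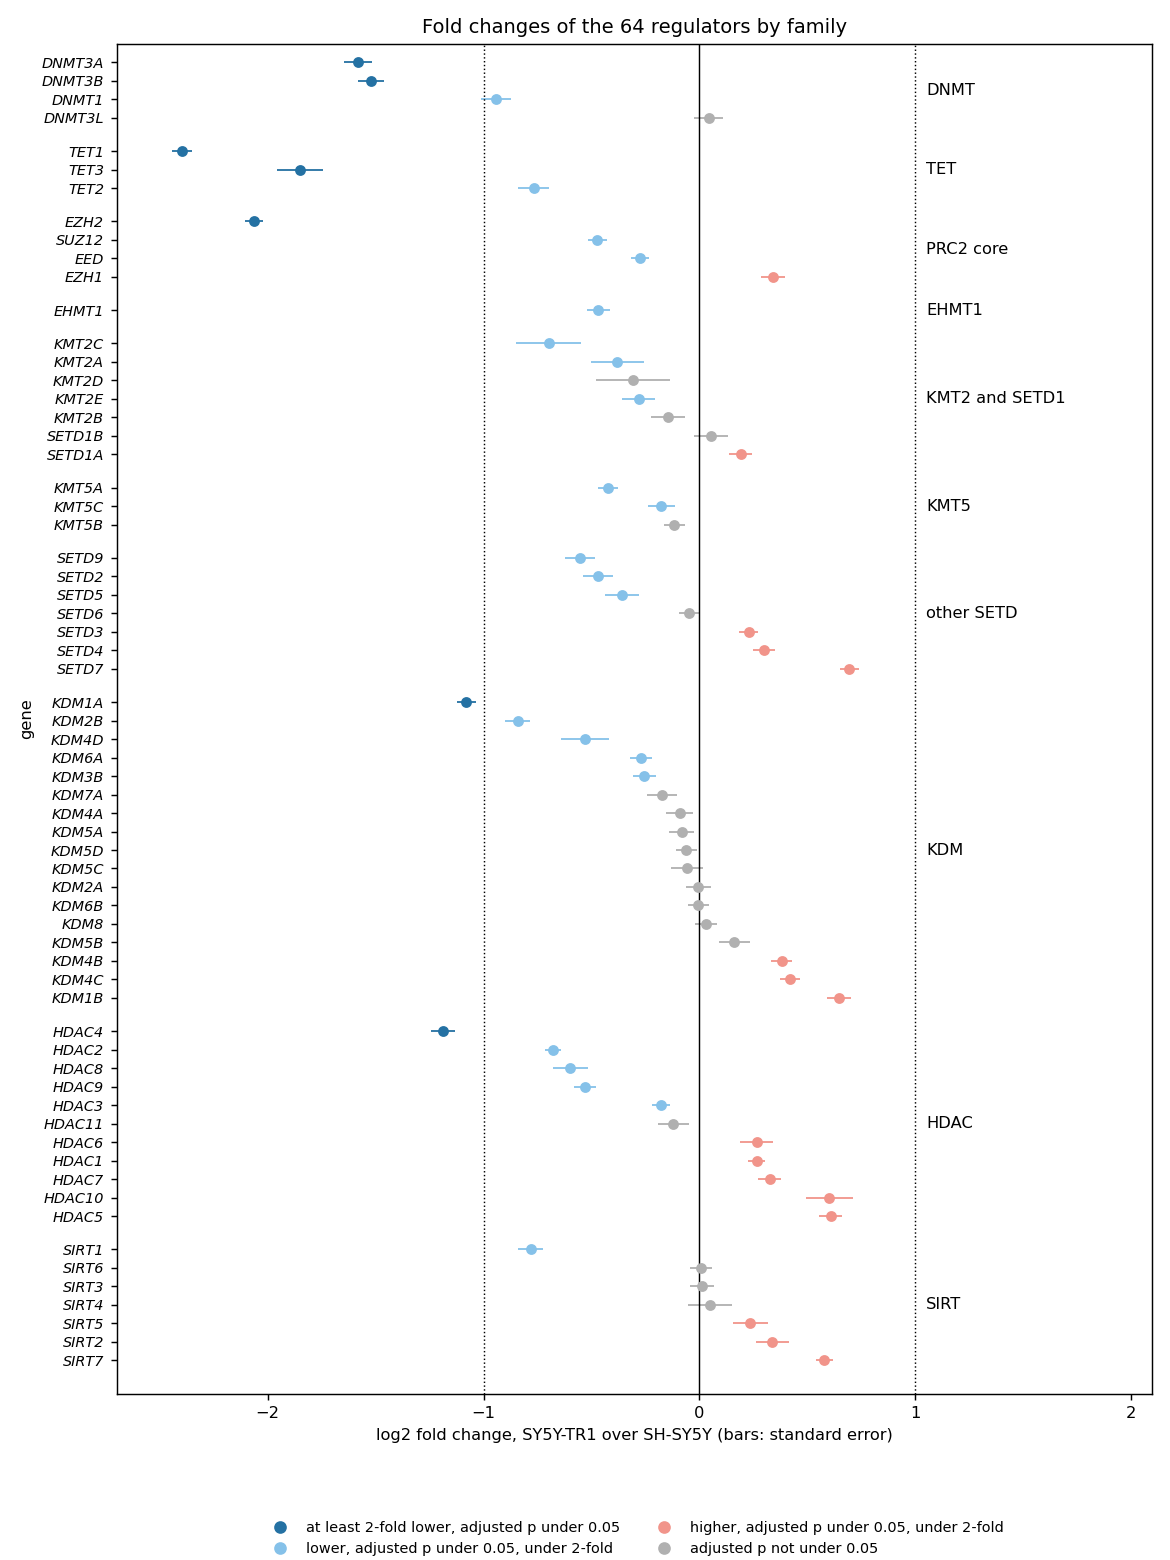
Log2 fold change (horizontal axis, SY5Y-TR1 relative to SH-SY5Y) of the 64 regulators, grouped by family, with standard errors as bars and dotted lines at a fold of 2. The 7 dark blue genes lie beyond the left line and no gene lies beyond the right one, and members of the HDAC, KDM and other SETD groups lie on both sides of 0.

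Of 17 lysine demethylase (KDM) genes, 5 were lower by adjusted p (29.4%), 3 were higher (17.6%) and 9 did not pass. Among all genes 24.3% were lower and 28.5% higher, and among the expressed genes 36.3% were lower and 38.4% higher. The 5 were KDM1A, KDM2B, KDM4D, KDM6A and KDM3B, of which KDM4D was at background. KDM2B, which recruits a variant PRC1 complex to unmethylated CpG islands, had 8.50, 8.48 and 8.60 in SY5Y-TR1 cells, against 9.36, 9.31 and 9.44 in SH-SY5Y cells (log2 fold change −0.84 ± 0.06, limma adjusted p = 1.56e-05). The demethylases that act on the PRC2 mark, KDM6A and KDM6B, had log2 fold changes of −0.27 ± 0.05 (limma adjusted p = 0.0033) and −0.0041 ± 0.047 (limma adjusted p = 0.952). KDM4B and KDM4C, which act on heterochromatic marks, were higher with log2 fold changes of 0.38 and 0.42.

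The KMT2 and SETD1 group, most of whose members are catalytic subunits of COMPASS complexes at active genes, held no called gene. By adjusted p 3 of 7 were lower (42.9%), 1 was higher (14.3%) and 3 did not pass. The expressed genes had 36.3% lower and 38.4% higher. KMT2C, an enhancer methyltransferase, had the largest change, with 8.58, 8.95 and 8.30 in SY5Y-TR1 cells, against 9.23, 9.37 and 9.33 in SH-SY5Y cells (log2 fold change −0.70 ± 0.15, limma adjusted p = 0.00672). SY5Y-TR1 replicate 2 was the highest of its line and replicate 3 the lowest for this gene. The same order was seen for KMT2A (log2 fold change −0.38, limma adjusted p = 0.0364) and KMT2D, whose signals were 7.96, 8.45 and 7.70 in SY5Y-TR1 cells, against 8.34, 8.37 and 8.31 in SH-SY5Y cells. KMT2D overlapped between the lines and did not pass (log2 fold change −0.31 ± 0.17, limma adjusted p = 0.185). Of the 6 KMT2D probe sets, 0 were lower and 1 was higher by adjusted p. For KMT2C 3 of 6 probe sets were lower and 0 higher, and for KMT2A 4 of 11 were lower and 0 higher. These 3 genes had SDs of 0.25 to 0.38 among SY5Y-TR1 arrays, against a median SD of 0.07 over all genes.

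EHMT1, a methyltransferase of repressed euchromatin, had signals of 9.46, 9.57 and 9.47 in SY5Y-TR1 cells, against 9.90, 9.98 and 10.02 in SH-SY5Y cells (log2 fold change −0.47 ± 0.05, limma adjusted p = 0.000267). Of the KMT5 enzymes, which methylate histone H4, KMT5A had a log2 fold change of −0.42 ± 0.05 (limma adjusted p = 0.000187) and KMT5B one of −0.12 ± 0.05 that did not pass (limma adjusted p = 0.0996). KMT5C had a log2 fold change of −0.18 ± 0.06 (limma adjusted p = 0.0492). By adjusted p 2 of 3 KMT5 genes were lower (66.7%) and 0 higher, against 36.3% and 38.4% of the expressed genes. In the fit over all probe sets, all 4 KMT5A probe sets, 1 of 3 KMT5B and 0 of 2 KMT5C probe sets were lower by adjusted p.

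Of the remaining 7 SETD genes, 3 were lower (42.9%) and 3 higher (42.9%) by adjusted p. These shares were near the 36.3% lower and 38.4% higher among the expressed genes. SETD7, a methyltransferase of histone and nonhistone proteins, had the largest increase of all members, with 10.59, 10.69 and 10.67 in SY5Y-TR1 cells, against 9.98, 9.94 and 9.96 in SH-SY5Y cells (log2 fold change 0.70 ± 0.05, limma adjusted p = 1.25e-05). Its fold of 1.62 stayed under the limit, and its other probe set, at or under background in both lines, gave −0.59. SETD9, SETD2 and SETD5 had log2 fold changes of −0.55, −0.47 and −0.36, and SETD2 is the enzyme that methylates histone H3 along transcribed genes.

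**Figure D3:**
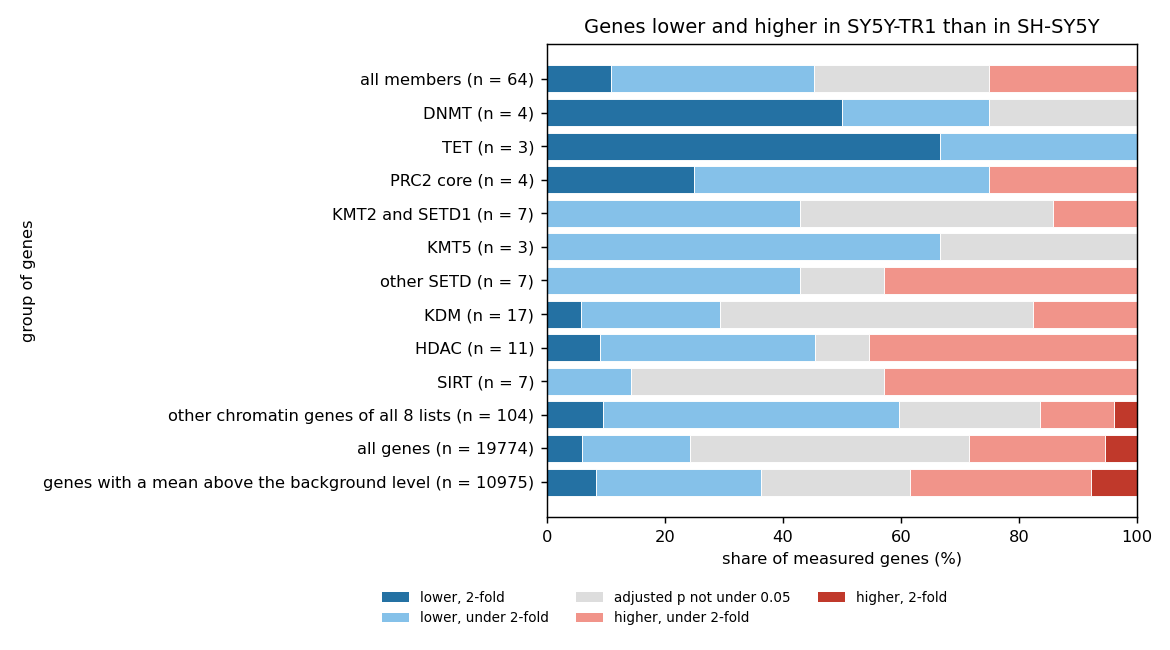
Share of measured genes (horizontal axis, %) that were lower or higher in SY5Y-TR1 than in SH-SY5Y cells by limma adjusted p, with darker colors for a fold of at least 2, in each family, in the other chromatin lists and in all genes. The TET, DNMT and PRC2 core groups hold 5 of the 7 called genes, and the KMT2 and SETD1, KMT5, other SETD and SIRT groups hold 0.

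The families thus differed in how many members were lower. The medians of the log2 fold change were −1.85 in the TET group, −1.23 in the DNMT group and −0.37 in the PRC2 core, and lay between −0.28 and 0.05 in the KMT2 and SETD1, KMT5, other SETD, KDM, HDAC and SIRT groups. The groups hold 3 to 17 genes, and no difference between families was tested.

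Different probe sets of a gene read different parts of its transcripts, and the 64 members had 182 probe sets. EZH2, DNMT3B and KDM1A, like 10 other members, were read by a single probe set. Both TET1 probe sets were called lower, at −2.40 and −2.61. Of 3 DNMT3A probe sets, 2 were called, at −1.58 and −1.69, and the third was under background in both lines. TET3 and HDAC4 each rested on 1 of 3 probe sets. The second TET3 probe set gave −0.54 with both lines under background, and the second HDAC4 probe set gave −0.63. With the mean of all probe sets as the gene's value, TET3 and HDAC4 missed the fold limit, at −0.79 (limma adjusted p = 1.97e-05) and −0.67 (limma adjusted p = 7.6e-05), and the other 5 genes were still called.

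**Figure D4:**
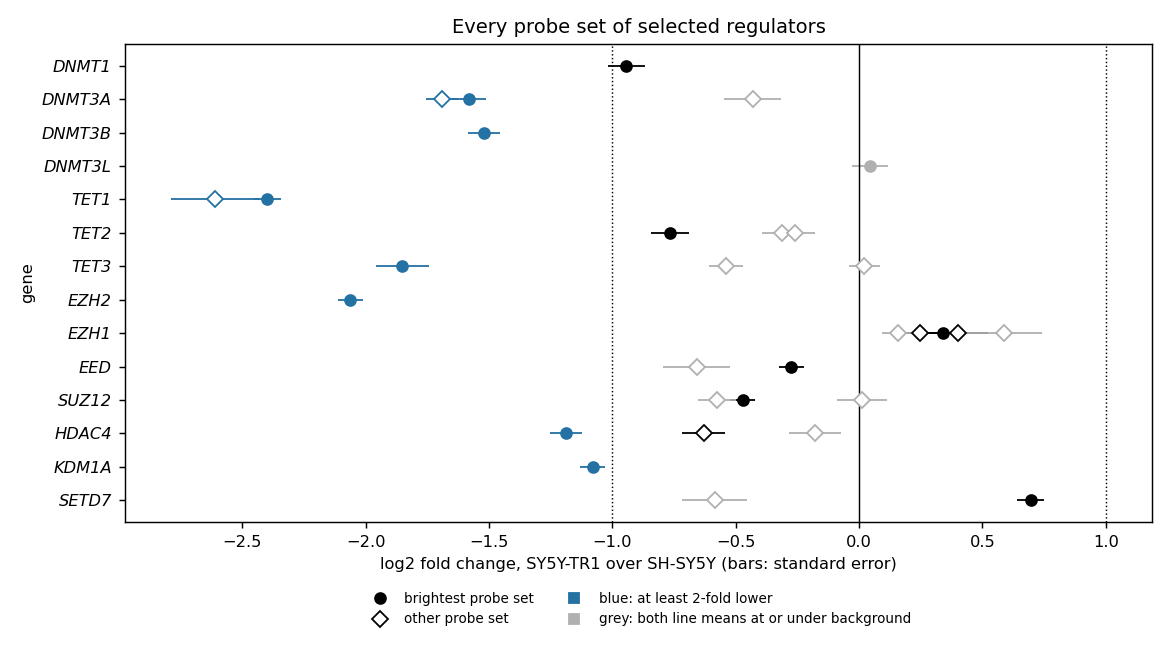
Log2 fold change (horizontal axis, SY5Y-TR1 relative to SH-SY5Y, bars for standard error) of each probe set of 14 regulators, with filled circles for the brightest probe set, open diamonds for others, blue for at least 2-fold lower and grey for both line means at or under background. Both TET1 probe sets lie left of −2, whereas TET3 and HDAC4 have 1 probe set each beyond the dotted line at −1.

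Partners of these enzymes were described from 8 lists of other chromatin genes, of which 104 of 113 genes were measured. By adjusted p 62 of the 104 were lower (59.6%) and 17 higher (16.3%), against 36.3% and 38.4% of the expressed genes. At 2-fold 10 were called lower (9.62%) and 4 higher, against 8.35% and 7.81% of the expressed genes, so the share called lower was near that of expressed genes. The median log2 fold change was −0.22, against 0.04 over all genes. Of 7 PRC2 partners, 5 were lower by adjusted p and 1 higher, with a median of −0.62. PHF19, a Polycomb-like accessory subunit that binds chromatin, had 7.78, 7.82 and 7.90 in SY5Y-TR1 cells, against 9.58, 9.63 and 9.71 in SH-SY5Y cells (log2 fold change −1.81 ± 0.05), and all 3 of its probe sets were called. Its relative MTF2 had a log2 fold change of −1.03 ± 0.05.

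Of 14 PRC1 genes, 7 were lower (50%) and 5 higher (35.7%) by adjusted p, against 36.3% and 38.4% of the expressed genes. CBX2, a reader of the PRC2 mark, had a log2 fold change of −1.80 ± 0.04 on 1 of 4 probe sets, and PCGF5, a subunit of variant PRC1, had 1.20 ± 0.05. Of 18 other histone methyltransferases, 12 were lower (66.7%) and 1 higher (5.56%). SUV39H2, a heterochromatin methyltransferase, had a log2 fold change of −1.53 ± 0.06, and NSD2, which dimethylates histone H3, had −1.40 ± 0.04. COMPASS partners had 7 of 11 lower (63.6%) and 0 higher, with PSIP1, a chromatin reader, at −1.19 ± 0.06.

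The HDAC co-repressor subunits had 13 of 20 genes lower (65%) and 3 higher (15%) by adjusted p, against 36.3% and 38.4% of the expressed genes. SAP30, a SIN3 complex subunit, had a log2 fold change of −1.40 ± 0.05. The 3 SAP30 probe sets with shared-sequence names were called lower, and the fourth, under background in both lines, gave −0.01. Histone acetyltransferases had 6 of 11 lower (54.5%) and 1 higher (9.09%). Other JmjC proteins had 5 of 8 lower (62.5%) and 0 higher, and no gene was called in either list.

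Of 15 partners of DNA methylation and readers of methyl-CpG, 7 were lower (46.7%) and 6 higher (40%) by adjusted p. The shares of the expressed genes were 36.3% lower and 38.4% higher. HELLS, a chromatin remodeler needed for DNA methylation, had 8.12, 8.41 and 8.03 in SY5Y-TR1 cells, against 9.96, 10.04 and 10.12 in SH-SY5Y cells (log2 fold change −1.85 ± 0.10), and all 5 of its probe sets were called, of which 1 had both line means under background. UHRF1, which brings DNMT1 to newly replicated DNA, had a log2 fold change of −1.56 ± 0.05, and TDG, the glycosylase that removes the products of TET oxidation, had −1.18 ± 0.04. The called increases were GADD45B at 1.35 ± 0.05, a stress-induced protein linked to active demethylation, and ZBTB38 and ZBTB4, both methyl-CpG binding zinc-finger proteins, at 1.07 ± 0.05 and 1.04 ± 0.05. All 3 increases were under 2-fold with the mean of all probe sets, at 0.89 for GADD45B, 0.79 for ZBTB38 and 0.90 for ZBTB4. GADD45B was at 0.30 with probe sets without shared-sequence names, and ZBTB4 at 0.99 after centring each array on a housekeeping list.

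**Figure D5:**
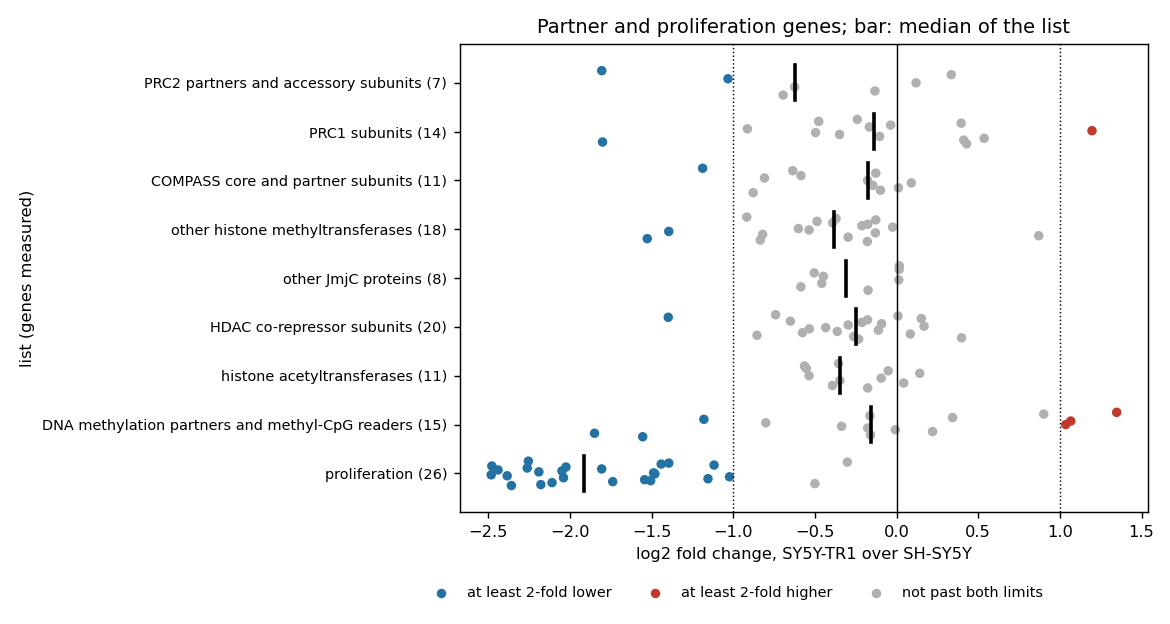
Log2 fold change (horizontal axis, SY5Y-TR1 relative to SH-SY5Y) of each measured gene of 8 chromatin lists and of the proliferation list, with a black bar at each list's median. The proliferation genes lie farthest left, with a median of −1.92, and called increases are seen only in the lists of PRC1 subunits and of DNA methylation partners.

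Proliferation genes were lower in SY5Y-TR1 cells, as were the regulators called lower. Of 26 such genes, 24 were called lower (92.3%), and all 26 were lower by adjusted p, with a median log2 fold change of −1.92. Of the expressed genes, 8.35% were called lower and 36.3% were lower by adjusted p. The mean log2 signal of the 26 was 9.38 to 9.41 on SY5Y-TR1 arrays and 11.14 to 11.17 on SH-SY5Y arrays. CCNB2, a mitotic cyclin, had a log2 fold change of −2.48 ± 0.06, although 1 of its 3 probe sets was called, and BIRC5 and BUB1B, which act at the kinetochore, had −2.48 ± 0.04 and −2.44 ± 0.04. The part of proliferation in the lower EZH2, DNMT, TET, UHRF1 and HELLS signals was not tested.

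Markers of neuroblast state also moved with the lines. Of 12 measured noradrenergic markers, 9 were called lower (75%), against 8.35% of the expressed genes. The mean log2 signal of the 12 was 6.75 to 6.86 on SY5Y-TR1 arrays and 9.84 to 9.89 on SH-SY5Y arrays. TFAP2B, a neural crest transcription factor, DDC, an enzyme of catecholamine synthesis, and SLC18A1, a vesicular monoamine transporter, were under background in SY5Y-TR1 cells and at least 37.5-fold, 31.6-fold and 3.57-fold lower there. Of 12 mesenchymal markers, 8 were called higher, against 7.81% of the expressed genes. By adjusted p 11 were higher (91.7%) and 1 was lower (8.33%), against 38.4% and 36.3% of the expressed genes. The means of the 12 were 11.74 to 11.79 on SY5Y-TR1 arrays and 9.91 to 9.99 on SH-SY5Y arrays. PRRX1, a mesenchymal transcription factor, was at least 113-fold higher in SY5Y-TR1 cells, and COL1A1 and TWIST2 were 13.2-fold and 4.19-fold higher. The lower marker was COL1A2, a collagen chain under background on all SY5Y-TR1 arrays and above it on 2 SH-SY5Y arrays (limma adjusted p = 5.02e-05). The change of state and the change in the regulators lie between the same 2 lines and cannot be told apart. In RNA of whole cultures, fewer cells of a type and less RNA per cell cannot be told apart either.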

How the data were processed

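Total RNA of SY5Y-TR1 and SH-SY5Y cells was hybridised to Affymetrix U133 Plus 2.0 arrays, 3 in each line. The log2 values deposited by the authors came from RMA, with Affymetrix Expression Console named in their processing notes (version not given in the sources used here), so background correction and normalization could not be varied from raw intensities. All 54675 probe sets were read, 62 controls were left out, and genes were named through the platform annotation from the 41089 probe sets with 1 symbol (1801 had several and 11721 none, and 2 belonged to a family gene that was left out and is not reported here). Groups came from the sample titles.

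The comparison used lmFit and eBayes of limma 3.58.1 in R 4.3.3 over 19774 genes with Benjamini-Hochberg adjustment, with no replicate block. The limits of a 2-fold change and an adjusted p of 0.05 follow the study's heatmap. The methods name Student's t-test, which was run as an alternative. Where every array of the dimmer line was at or under background, the fold is a lower bound, from the brighter line's mean to the higher of the background level and the dim signal. Each line's mean rests on 3 arrays, which limits the precision, and no depth applies to arrays.

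Named genes were every called member, the 5 largest further changes in each direction with an adjusted p under 0.05, all PRC2 core, DNMT and TET members, the 2 brightest members of families with none of these, and up to 3 called genes in each direction of each other list. Other genes named for their family's counts were chosen after their values were seen. Members and all 16 lists were chosen with earlier results of these data known. The fit was tested on simulated data. The alternatives were other probe set choices, scalings, filters, variance models, a block, thresholds and each array left out. Sequences upstream of the listed starts are from RefSeq (GRCh38.p14), and 60 of 64 members matched.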

Additional observations from a re-analysis of the deposited data

How the results depend on the processing

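The 7 members called lower were all called in 14 of 15 alternative fits, which include each array left out in turn, and no further member was called in any of the 15. The exception was the mean of all probe sets, with 5 members called lower. At a fold of at least 1.5, 14 of 64 members were lower and 4 higher, against 2162 and 2171 of all 19774 genes. With no limit on the fold 29 members were lower (45.3%) and 16 higher (25%), against 4813 (24.3%) and 5634 (28.5%) of all genes. With each array left out in turn, 7 members were lower and 0 higher throughout, 26 to 30 were lower and 14 to 15 higher by adjusted p alone, and 1172 to 1206 of all genes were called lower and 1030 to 1082 higher. The methods' t-test with Benjamini-Hochberg adjustment gave 7 members lower at 2-fold, and 26 lower and 14 higher by p alone.

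The replicate numbers of the labels did not pair the arrays, since deviations of same-numbered arrays correlated at r of 0.000217, 0.0205 and 0.0299. The replicate block left 7 members called lower and 0 higher, 28 lower and 16 higher by adjusted p alone, and 1185 and 1060 of all genes. For DNMT3L, which is under background in both lines, the difference between lines was −0.0019 on the log2 scale after centring on housekeeping genes, which is a difference between background signals and not a measured change. Over the same fits the log2 fold change ran from −2.04 to −2.11 for EZH2, from −2.03 to −2.50 for TET1 and from −1.05 to −1.12 for KDM1A. PCGF5, CBX2, PSIP1 and CCNB2 fell under 2-fold with the mean of all probe sets. The causes were not tested. Signals near the background level of 6.32 limit what can be read of TET1 in SY5Y-TR1 cells and of the second probe sets of several genes.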
